A study of Rattus norvegicus with 12 samples.

Results

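The aldehyde dehydrogenases of rat liver were followed across the doses of A-998679. The members were a fixed set of 10 genes: Aldh1a1, Aldh1b1, Aldh2, Aldh3a1, Aldh3a2, Aldh4a1, Aldh6a1, Aldh7a1, Aldh8a1 and Aldh9a1. A gene entered through probe sets that the array's annotation assigned to that symbol alone. On this rule 9 of the 10 genes were measured, by 10 of the 29176 probe sets. Aldh6a1 had 2 probe sets, the other 8 genes had 1 each, and Aldh8a1 had none. The rule used no measured value, although the 10 genes were chosen with earlier results of these data known.

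Male Sprague Dawley rats, of 176 to 200 g by the labels and heavier by the methods, received the compound once daily by oral gavage for 5 days at 30, 100 or 200 mg/kg/day. The vehicle group received the carrier alone, 0.2% HPMC at 10 ml/kg. Each group held 3 rats, all were fasted overnight after the last dose, and the RNA of each liver was hybridized to 1 Affymetrix RAE230 2.0 array. The top group is named 200 mg/kg in the sample titles and in the methods, while its description field gives 300 mg/kg, and the titles were followed. No age is stated for the rats in the labels or methods. A-998679 is an experimental compound that the study examined as an inducer of its own clearance, and the question put to these genes is whether their liver transcripts differed from vehicle at each dose.

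Aldehyde dehydrogenases use NAD+ or NADP+ to oxidize reactive aldehydes to carboxylic acids. The aldehydes come from alcohol, from lipid peroxidation, from amino acid breakdown, from vitamin A and from drugs, and the liver carries many of these enzymes. Most members have a metabolic job that is needed at all times, whereas a few, among them Aldh1a1 and Aldh3a1, are known in rodents as genes that foreign compounds can induce through receptors such as CAR and the aryl hydrocarbon receptor (AhR).

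Promoter sequence from RefSeq is shown for 4 genes. Aldh1a1 and Aldh1l1 are shown because they were the aldehyde dehydrogenase genes whose signal rose at the top dose, Aldh1l1 being outside the set of 10. Aldh3a2 and Aldh9a1 are shown because their windows hold the core of the xenobiotic response element, the site AhR binds, and their signals did not pass the test. Aldh7a1, whose window holds that core 1 time and whose signal did not pass either, is not shown. Each window runs from 250 bases before to 50 bases after 1 annotated start of the gene, 5′ to 3′ on the gene's strand. Capitals mark every match to GCGTG (that core), to TGACNNNGC (the core of the antioxidant response element bound by Nrf2) or to CCAAT, on either strand.
Aldh1a1 (GRCr8 chr1:227537370-227537669, plus strand): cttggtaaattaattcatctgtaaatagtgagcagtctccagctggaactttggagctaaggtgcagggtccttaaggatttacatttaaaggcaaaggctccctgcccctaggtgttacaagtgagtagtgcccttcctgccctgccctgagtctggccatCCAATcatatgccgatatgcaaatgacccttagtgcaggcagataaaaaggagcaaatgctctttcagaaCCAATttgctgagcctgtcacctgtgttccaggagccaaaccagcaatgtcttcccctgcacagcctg
Aldh1l1 (GRCr8 chr4:124616970-124617269, plus strand): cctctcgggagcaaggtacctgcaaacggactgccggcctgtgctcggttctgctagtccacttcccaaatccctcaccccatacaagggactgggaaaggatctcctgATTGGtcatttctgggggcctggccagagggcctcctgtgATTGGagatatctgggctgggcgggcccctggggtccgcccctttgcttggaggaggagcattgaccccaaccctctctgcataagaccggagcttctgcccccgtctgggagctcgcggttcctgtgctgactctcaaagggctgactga
Aldh3a2 (GRCr8 chr10:46448286-46448585, minus strand): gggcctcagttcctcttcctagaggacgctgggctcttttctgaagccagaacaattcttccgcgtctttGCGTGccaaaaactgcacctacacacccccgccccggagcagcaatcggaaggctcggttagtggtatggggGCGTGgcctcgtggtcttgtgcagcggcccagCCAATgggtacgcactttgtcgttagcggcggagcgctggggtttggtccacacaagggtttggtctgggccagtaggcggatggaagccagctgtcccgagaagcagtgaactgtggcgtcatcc
Aldh9a1 (GRCr8 chr13:82038429-82038728, plus strand): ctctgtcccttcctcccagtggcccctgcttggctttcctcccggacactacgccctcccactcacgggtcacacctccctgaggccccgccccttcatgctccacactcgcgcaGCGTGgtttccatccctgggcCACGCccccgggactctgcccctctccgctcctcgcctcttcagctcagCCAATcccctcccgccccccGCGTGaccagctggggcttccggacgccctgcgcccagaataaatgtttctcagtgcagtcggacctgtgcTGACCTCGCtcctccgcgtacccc

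A window was given for 8 of the 10 members, all but Aldh2 and Aldh3a1. GCGTG was found in 3 of the 8, once in Aldh7a1, 2 times in Aldh3a2 and 3 times in Aldh9a1, against 29.7% of all 33469 promoter windows of this length. TGACNNNGC was found in 1 of the 8, Aldh9a1, where it lies after the start, against 12.1% of all windows. CCAAT was found in 6 of the 8, against 37.5% of all windows. The windows of Aldh1a1 and Aldh1l1 held CCAAT 2 times each and neither of the other motifs. In Aldh1a1 the CCAAT matches begin 88 and 18 bases before the start. These are matches of letters in short windows and say nothing of binding.

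Aldh1a1, a cytosolic enzyme that oxidizes retinaldehyde to retinoic acid and also handles aldehydes from lipid peroxidation, was the member whose signal rose. All levels here are log2 intensities of 1 probe set. In the vehicle rats it read 9.73, 9.94 and 9.51. The lowest dose gave 10.43, 9.79 and 10.62, so that its rat 2 lay within the vehicle range and the other rats lay above it. The middle dose gave 10.93, 10.78 and 10.66, and the top dose gave 11.19, 11.27 and 10.99. Every rat at 100 and 200 mg/kg lay above every vehicle rat, and the 30 mg/kg group overlapped vehicle.

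The Aldh1a1 group means were 9.73 ± 0.217 in vehicle and 10.28 ± 0.438, 10.79 ± 0.139 and 11.15 ± 0.147 at the 3 rising doses (log2 intensity, SD, n = 3 each). At 200 mg/kg its signal was 2.68-fold that of vehicle, a log2 difference of 1.42 with a standard error of 0.18 and a 95% interval of 1.03 to 1.81. That difference passed limma's moderated test with Benjamini-Hochberg adjustment over all probe sets tested (adjusted p = 0.0052). The 2-sided exact permutation p was 0.1, the smallest that 3 rats against 3 can give. The call was lost with dim and empty values raised to a floor (adjusted p = 0.079), without the variance trend in limma (adjusted p = 0.12) and in the per-gene test of means that the methods name (adjusted p = 0.29).

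The Aldh1a1 signal at 100 mg/kg was 2.09-fold that of vehicle (log2 difference 1.06, 95% interval 0.67 to 1.45), which did not pass in limma's test (adjusted p = 0.12). Of the 12 limma fits that left out 1 rat, it passed in 1, without rat 2 of the 30 mg/kg group (adjusted p = 0.013). The adjusted p reached 0.33 in the other fits. That rat, which overlapped vehicle, is in neither group compared and enters only the shared spread estimate. At 30 mg/kg the ratio was 1.47-fold, with a log2 interval of 0.16 to 0.94 and an adjusted p of 0.92 in limma. The mean of the 3 doses lay 1.01 above vehicle on the log2 scale and passed in limma (adjusted p = 0.023), with an exact permutation p of 0.0091 for 9 rats against 3. This call was lost when any one of vehicle rats 1, 2 or 3, 100 mg/kg rats 1 or 2, or 200 mg/kg rat 2 was left out, with adjusted p from 0.053 to 0.17. A straight line over dose gave a log2 slope of 0.66 per 100 mg/kg with a standard error of 0.095 (limma, adjusted p = 0.0053), and the slope passed in all 12 fits that left out 1 rat but not with the floor (adjusted p = 0.057) or without the variance trend (0.10).

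The order of the Aldh1a1 group means followed the dose, but the steps between neighbouring doses did not pass. The step from 30 to 100 mg/kg was 0.51 on the log2 scale (95% interval 0.12 to 0.90, limma adjusted p = 0.88). The step from 100 to 200 mg/kg was 0.36 (95% interval -0.03 to 0.75, limma adjusted p = 0.88), and the highest 100 mg/kg rat, at 10.93, lay just under the lowest 200 mg/kg rat, at 10.99. From 30 to 200 mg/kg the difference was 0.87 (limma adjusted p = 0.16). These comparisons share rats with those against vehicle.

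**Figure D1:**
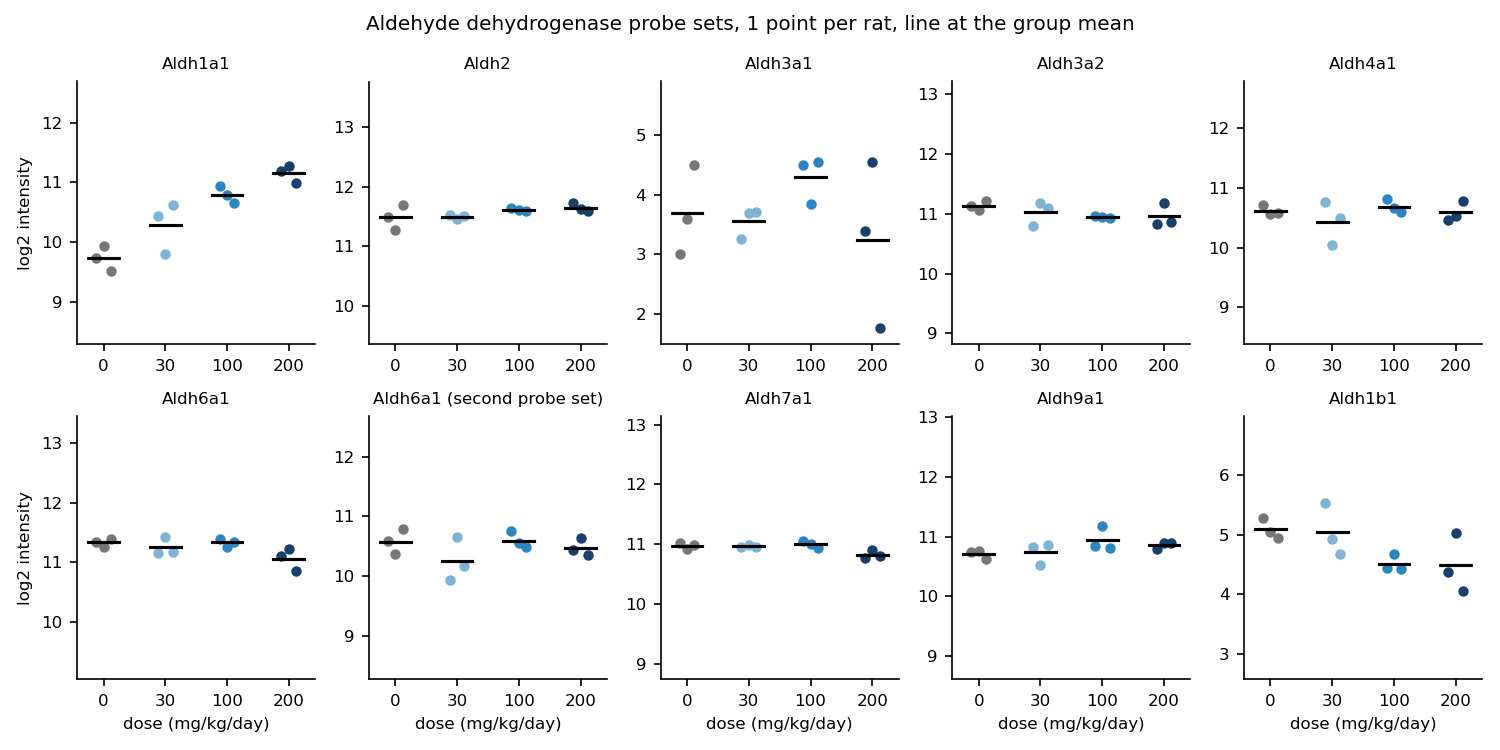
Log2 intensity (vertical axis, spanning the same number of log2 units in every panel) of each of the 10 aldehyde dehydrogenase probe sets against dose (horizontal axis, mg/kg/day, 0 for vehicle), with 1 point per rat and a line at the mean of the 3 rats. Aldh1a1 climbs from a mean of 9.73 in vehicle to 11.15 at 200 mg/kg, while the other panels show no comparable step.

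Over all members, 1 of the 9 measured genes rose at 200 mg/kg, none fell and 8 did not pass. Over the whole array 0.214% of the probe sets tested passed in that comparison. For the mean of the 3 doses the count was again 1 of 9, against 0.0612% of all probe sets, and for the slope over dose it was 1 of 9, against 0.29%. The gene was Aldh1a1 in each. Unadjusted, at a limma p of 0.05 or less, 1 member was higher and 1 lower at 200 mg/kg, against 8.8% of all probe sets. For the slope 1 was higher and 2 lower, against 9.4% of all. The lower 2 were Aldh1b1 (-0.33 per 100 mg/kg) and Aldh6a1 (-0.12). Each had an unadjusted p of 0.034 and an adjusted p of 0.48 in limma. The second Aldh6a1 probe set gave a slope of 0.018. At 30 mg/kg 0 of 9 passed in limma, against 0.00748% of all probe sets, and 0 in the per-gene test of means after adjustment. In limma 1 of 9 had an unadjusted p of 0.05 or less at that dose, against 5.16% of all probe sets. The middle dose had 0 of 9 past the threshold in limma, against 0.0224%, with 1 of 9 at an unadjusted p of 0.05 or less, against 6.01%, and 0 in that adjusted test of means. Between doses 0 of 9 passed in limma, where the background was 0.0187% for 200 against 30 mg/kg and 0% for both other pairs. Unadjusted, at a p of 0.05 or less, limma found 1 of 9 for 200 against 30 mg/kg, where 7.87% of all probe sets did so. It found 2 for 200 against 100 mg/kg (5.91% of all) and 1 for 100 against 30 mg/kg (5.54% of all), and the adjusted test of means found 0 in each pair.

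The median log2 difference of the 9 genes was -0.15 at 200 mg/kg, beside -0.0011 over all probe sets tested, so the rise of Aldh1a1 was not shared by the set. The median was 0.07 at the middle dose and -0.04 at the lowest. At 200 mg/kg the rats of 4 genes did not overlap vehicle, Aldh1a1 and Aldh9a1 higher and Aldh6a1 and Aldh7a1 lower, where 15.6% of the probe sets measured in all rats were apart in one direction or the other. The middle dose had 4 genes apart, Aldh1a1 and Aldh9a1 higher and Aldh3a2 and Aldh1b1 lower, against 13.4% of those probe sets. The lowest dose had 0 of 9 apart, against 10.4%. With all 9 dosed rats set against the 3 vehicle rats, 0 of 9 genes were apart, against 1.37%.

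**Figure D2:**
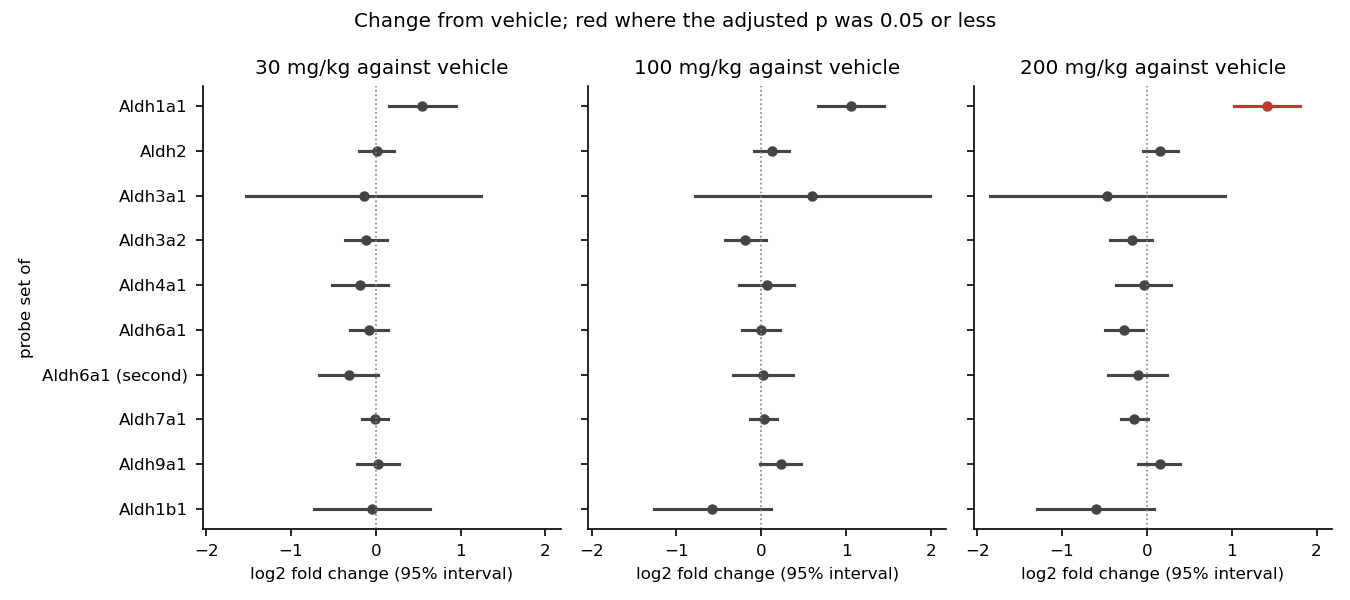
Log2 fold change against vehicle (horizontal axis) of each aldehyde dehydrogenase probe set (vertical axis) at 30, 100 and 200 mg/kg; points are limma estimates, lines are 95% intervals, and red marks an adjusted p of 0.05 or less. Only Aldh1a1 at 200 mg/kg is red, at 1.42 with an interval of 1.03 to 1.81, and Aldh3a1 has the widest intervals.

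Aldh2, the mitochondrial enzyme that clears acetaldehyde made from ethanol, stayed within a narrow range. Vehicle rats read 11.49, 11.28 and 11.69, and rats at 200 mg/kg read 11.72, 11.63 and 11.59. The groups overlapped, and all 12 rats lay between 11.28 and 11.72. The log2 differences from vehicle were 0.013, 0.13 and 0.16 at the 3 rising doses, and the 95% interval at 200 mg/kg was -0.044 to 0.37 (limma, adjusted p = 0.69).

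Aldh1b1, a mitochondrial relative of Aldh2 that also accepts acetaldehyde and retinaldehyde, had a much dimmer probe set. It read 5.28, 5.04 and 4.94 in vehicle, and 5.53, 4.92 and 4.68 at the lowest dose. The middle dose gave 4.44, 4.67 and 4.42, and the top dose gave 4.38, 5.02 and 4.05. All rats at 100 mg/kg lay below vehicle, and rat 2 at 200 mg/kg lay inside the vehicle range. The log2 differences were -0.043, -0.58 and -0.60 at the rising doses, with a 95% interval at the top dose of -1.29 to 0.084 (limma, adjusted p = 0.64). At this signal the interval spans from 0.409 to 1.06 of the vehicle level.

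Aldh3a1, the cytosolic enzyme that is a classical AhR target in rodent liver, was at the dim end of the array in every group. The probe set read 3.00, 3.60 and 4.49 in vehicle, and 3.25, 3.70 and 3.71 at the lowest dose. The middle dose gave 4.50, 3.85 and 4.55, and the top dose gave 3.40, 4.54 and 1.76. Of its 12 values, 7 lay under 3.84, the 25th percentile of all values in the data. The log2 difference was 0.60 at 100 mg/kg, with a 95% interval of -0.78 to 1.99 (limma, adjusted p = 0.94). At 200 mg/kg it was -0.47, with an interval of -1.85 to 0.92 (limma, adjusted p = 0.90), and it became 0.27 without rat 3 of that group. No change of Aldh3a1 was detectable with this probe set and 3 rats a group, and the intervals are too wide to show that it did not change.

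Aldh3a2, the microsomal enzyme that oxidizes long-chain fatty aldehydes, is a chromosome 10 neighbour of Aldh3a1 in the GRCr8 annotation, with 2 annotated genes, one of them a pseudogene by its symbol, between them. It was bright, reading 11.13, 11.07 and 11.21 in vehicle and 10.83, 11.18 and 10.86 at 200 mg/kg. The groups overlapped at the top dose, while the 100 mg/kg rats, at 10.97, 10.95 and 10.93, all lay below vehicle. The log2 differences were -0.12, -0.19 and -0.18 at the rising doses, and the interval at 200 mg/kg was -0.43 to 0.062 (limma, adjusted p = 0.71).

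The enzymes of amino acid breakdown gave small differences. Aldh4a1, which turns pyrroline carboxylate from proline into glutamate, read 10.72, 10.56 and 10.58 in vehicle and 10.46, 10.53 and 10.78 at 200 mg/kg, and the groups overlapped. Its log2 difference at 200 mg/kg was -0.032 (95% interval -0.36 to 0.29, limma adjusted p = 0.98). The lowest of its 12 values, 10.04, belonged to 30 mg/kg rat 2. That rat was also lowest for Aldh1a1 in its group and lowest of all 12 for Aldh9a1, at 10.53. The same rat was the highest of all 12 for the brighter Aldh6a1 probe set, at 11.43.

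Aldh6a1, the methylmalonate semialdehyde dehydrogenase of valine and thymine breakdown, was the member with the lowest p after Aldh1a1 at the top dose. Its brighter probe set read 11.34, 11.26 and 11.40 in vehicle and 11.11, 11.22 and 10.86 at 200 mg/kg, all below vehicle. The log2 difference was -0.27 (95% interval -0.49 to -0.041), with an unadjusted p of 0.024 and an adjusted p of 0.46 in limma. The second probe set read 10.58, 10.37 and 10.78 in vehicle and 10.43, 10.63 and 10.35 at 200 mg/kg, overlapping, and its log2 difference was -0.11 (95% interval -0.46 to 0.24, limma adjusted p = 0.91).

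Aldh7a1, known as antiquitin, oxidizes aminoadipate semialdehyde from lysine and was the steadiest member, with all 12 rats between 10.77 and 11.06. Vehicle rats read 11.02, 10.92 and 10.98, and rats at 200 mg/kg read 10.77, 10.90 and 10.80, all below the lowest vehicle rat. The log2 difference at 200 mg/kg was -0.15 (95% interval -0.31 to 0.008, limma adjusted p = 0.60). Aldh8a1, which acts on aminomuconate semialdehyde in the kynurenine pathway of tryptophan, was not measured here.

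Aldh9a1, which makes the carnitine precursor butyrobetaine from trimethylaminobutyraldehyde, read 10.75, 10.76 and 10.63 in vehicle. The middle dose gave 10.84, 11.18 and 10.81 and the top dose gave 10.79, 10.90 and 10.89, above every vehicle rat in both groups. The log2 differences were 0.23 (limma adjusted p = 0.85) and 0.15 (95% interval -0.099 to 0.39, limma adjusted p = 0.79). The 6 bright members other than Aldh1a1, namely Aldh2, Aldh3a2, Aldh4a1, Aldh6a1, Aldh7a1 and Aldh9a1, had intervals at 200 mg/kg that ran at most from 0.710 to 1.31 of the vehicle level. Changes beyond those bounds are outside the 95% intervals, and smaller ones were not detectable at 3 rats a group.

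Of the aldehyde dehydrogenase genes outside the set, 8 of 10 listed had a probe set of their own, 1 rose at 200 mg/kg and 7 did not pass. The gene that rose was Aldh1l1, the cytosolic formyltetrahydrofolate dehydrogenase of folate metabolism. It read 10.14, 10.07 and 10.06 in vehicle, and 10.38, 9.99 and 10.23 at the lowest dose. The middle dose gave 10.70, 10.89 and 10.56, and the top dose gave 11.17, 10.81 and 10.88. The groups at 100 and 200 mg/kg lay wholly above vehicle and the 30 mg/kg group overlapped it. Its signal at 200 mg/kg was 1.82-fold that of vehicle, a log2 difference of 0.86 with a standard error of 0.122 (limma, adjusted p = 0.01). This call was lost without vehicle rat 2 (adjusted p = 0.055), without vehicle rat 3 (0.064), with the floor (0.079) and without the variance trend (0.21).

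The other genes that handle alcohols and aldehydes moved in part. Of 15 measured, 2 rose at 200 mg/kg and 13 did not pass, with a median log2 difference of 0.28. Akr7a3, the aflatoxin aldehyde reductase of rat liver, rose 12.7-fold (log2 difference 3.66, SE 0.349, limma adjusted p = 9.4e-04). Akr7a2, its relative that reduces succinic semialdehyde, rose 1.66-fold (log2 difference 0.73, limma adjusted p = 0.011), a call lost without vehicle rat 2 (0.058) or vehicle rat 3 (0.069).

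The genes upstream and downstream of each member were counted the same way at 200 mg/kg, all with limma. Of 20 retinoid enzymes and carriers tested, 0 passed, with 1 at an unadjusted p of 0.05 or less. The smallest p was that of Rdh10, a retinol dehydrogenase that supplies retinaldehyde, with a log2 difference of -0.30 (adjusted p = 0.30), followed by Rdh16, with -1.19 (adjusted p = 0.64). Of 5 genes of acetaldehyde and acetate 0 passed, with Acss2, an acetyl-CoA synthetase, at 0.35 (adjusted p = 0.52) and catalase, Cat, at -0.13. Of 9 genes of carnitine synthesis and transport 0 passed, with Shmt2 at 0.24 and Slc25a20, the carnitine carrier of mitochondria, at -0.20. Of 9 genes of fatty aldehyde and sphingosine breakdown 0 passed, with Phyh, the phytanoyl-CoA hydroxylase of peroxisomes, at -0.25 (adjusted p = 0.35) and Acsl1 at -0.17.

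Among the amino acid pathways, 1 gene passed. Oat, ornithine aminotransferase, which feeds the substrate of Aldh4a1, fell by 1.76 log2 units at the top dose (SE 0.321, limma adjusted p = 0.048), and it was the 1 of 6 proline and hydroxyproline genes that passed. That call lay at the threshold: the adjusted p was between 0.054 and 0.17 without any one of vehicle rats 1, 2 or 3, 30 mg/kg rats 2 or 3, or 100 mg/kg rats 1, 2 or 3. Prodh, on the same proline list, went the other way, at 0.53 (unadjusted p = 0.028, adjusted p = 0.48 in limma), and did not pass. Of 14 valine and thymine genes 0 passed, with Hibch at 0.34 (adjusted p = 0.21) and Dpyd, which starts thymine breakdown, at -0.36 (adjusted p = 0.38). Of 9 lysine and choline genes 0 passed, with Dhtkd1 at 0.23 and Aadat at -0.32. Of 9 kynurenine pathway genes 0 passed, with Kyat1 at 0.57 (adjusted p = 0.22) and Kynu at -0.34 (adjusted p = 0.41). At an unadjusted p of 0.05 or less there were 4 genes in the valine list, 2 in the kynurenine list and 1 each in the lysine, acetaldehyde and fatty aldehyde lists, and none in the carnitine list, where 8.8% of all probe sets reached it.

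Target genes of the receptors that are known to induce these enzymes were read beside them. Of 8 CAR and PXR target genes 4 rose at 200 mg/kg, namely Aldh1a1 itself, Ephx1 (microsomal epoxide hydrolase, log2 difference 1.47), Ugt2b1 (a glucuronosyltransferase, 1.77) and Abcb1a (a drug efflux pump, 1.12). The rest of that list, Cyp3a23-3a1 (0.099), Cyp3a2 (-0.35), Ces2c (0.58) and Por (0.4), did not pass. Over all probe sets tested, 0.214% passed at that dose in either direction. Of 9 Nrf2 target genes 4 rose, namely Akr7a3, Ephx1, Nqo1 (a quinone reductase, 1.77) and Me1 (malic enzyme, 0.99). The other Nrf2 targets, Gclc (0.35), Gclm (0.59), Txnrd1 (0.58), Hmox1 (0.34) and Srxn1 (0.59), did not pass. Of 5 AhR target genes tested 2 rose, Cyp1a2 (1.40, limma adjusted p = 0.0042) and Nqo1. On the same list Aldh3a1 (-0.47), Cyp1b1 (-0.038) and Tiparp (-0.12) did not pass. Cyp1a1 was not among the AhR target genes tested. The paper reports that its expression was raised in the livers of dosed rats. These lists overlap and were chosen with earlier results of these data known. The Ugt2b1 call was lost without any one of 7 rats (adjusted p 0.05 to 0.15), the Me1 call without any single vehicle rat (0.055 to 0.07) and the Abcb1a call without vehicle rat 2 (0.056). With only the vehicle and top-dose rats in the fit, Cyp1a2 (0.058), Nqo1 (0.07), Me1 (0.089) and Abcb1a (0.089) did not pass.

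The genes whose course over the rats was closest to that of Aldh1a1 were found by the root mean square difference of log2 deviations from each gene's own vehicle mean, over 12 rats and 10840 genes without an empty value. They were Reep6 at 0.315, Rbm33 at 0.345, Exosc5 at 0.366, Oard1 at 0.389 and Zfp692 at 0.392 log2 units. Reep6 was 1.11 above vehicle at 200 mg/kg (limma adjusted p = 0.048), and the other 4 genes, with log2 differences of 0.82 to 1.14, did not pass. The measure picks genes with a like size and course, so their differences are a description.

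**Figure D3:**
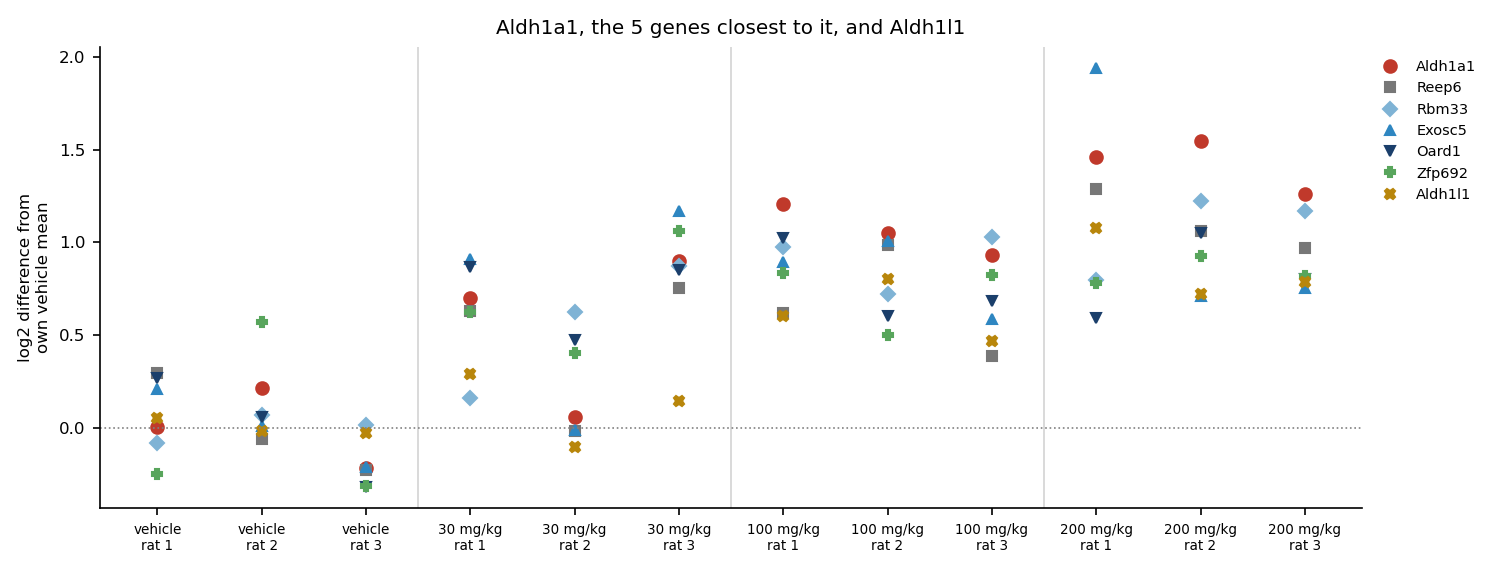
Log2 difference from the gene's own vehicle mean (vertical axis) in each of the 12 rats (horizontal axis, grouped by dose) for Aldh1a1, the 5 genes closest to it by root mean square difference, and Aldh1l1. The points of Aldh1a1 (red circles) lie near 0 in vehicle rats and in 30 mg/kg rat 2, and between 1.26 and 1.54 in the rats at 200 mg/kg.

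Markers of the cells in the tissue were read beside these results. Of 8 hepatocyte markers 0 passed at 200 mg/kg in limma, with 3 lower at an unadjusted p of 0.05 or less. Their summed log2 level was 15.66 to 15.78 in vehicle rats and 15.37 to 15.67 at 200 mg/kg, ranges that met at 1 end only, and its part in the members' differences was not tested. The summed levels of the markers of erythroid cells, lymphocytes, cholangiocytes, Kupffer cells, stellate cells and endothelial cells overlapped between vehicle and 200 mg/kg, with 0 markers past the adjusted threshold and 0 at an unadjusted p of 0.05 or less. Enzymes differ along the liver lobule, so zone markers were counted too. Of 9 pericentral genes 1 rose, Cyp1a2, and 1 fell, Oat, and of 10 periportal genes 0 passed, with Sds at -0.89 (adjusted p = 0.47) and Pck1 at -0.27. In bulk liver, fewer cells of a type and less RNA per cell cannot be told apart.

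Over the whole series, 12.1% of the values are empty, and no member value is among them. Array medians ran from 5.21 to 5.26 on the log2 scale. Pearson's r between arrays, over the 20497 probe sets with no empty value, was 0.913 to 0.938 within groups and 0.910 to 0.941 between groups, a description across probe sets. The number of probe sets called at 200 mg/kg was 57, of 26686 tested.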

How the data were processed

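Total RNA from 12 rat livers, 3 per group, was measured on Affymetrix RAE230 2.0 arrays. The authors processed the scans with Rosetta Resolver 7.2 and deposited 1 log10 intensity per probe set and rat. No source used here says how background and scale were corrected or why some values are empty. A second deposited file holds the authors' own fold changes and was not used. The deposited log10 values were converted to log2 and empty values were left missing. Groups were taken from the sample titles. Probe sets were named from the platform annotation, with symbols updated by RefSeq. A gene with several probe sets was represented by the one with the highest mean, and both Aldh6a1 probe sets were tested.

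All probe sets were fitted in limma 3.58.1 (R 4.3.3) with the 4 groups in 1 model, an empirical Bayes variance trend, 8 residual degrees of freedom and Benjamini-Hochberg adjustment over all probe sets that could be fitted. The threshold was an adjusted p of 0.05. Resolver's error model was not rerun. A per-gene t-test was run as an alternative. The methods name the t-test with the graphing software, and Resolver for the arrays. Each result was refitted after quantile normalization, with a common 75th percentile per array, with a floor at the 25th percentile, filters on dim probe sets, under other variance models, with a replicate block and leaving out each rat. The scripts were tested on simulated data. All 10 members were named, and from each other list the genes that passed at 200 mg/kg or, where none passed, up to 2 with the smallest p. The members and the lists were chosen with earlier results of these data known. The promoter windows came from RefSeq (GRCr8) and were searched on both strands. The number of arrays limits the precision.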

Additional observations from a re-analysis of the deposited data

How the results depend on the processing

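Of 185 counts of members called that were recomputed, 162 stayed the same. With the floor and without the variance trend, 0 members passed in place of 1 at the top dose, for the 3 doses averaged and for the slope. In the per-gene t-test after adjustment 0 passed at the top dose and for the 3 doses averaged. At an unadjusted p of 0.05 or less that t-test passed 3 members at 100 mg/kg (6.46% of all probe sets), 2 at 200 mg/kg (7.95%), 3 for 200 against 30 mg/kg (6.4%), 2 for 200 against 100 mg/kg (5.63%) and 1 for 100 against 30 mg/kg (4.94%). With array weights (adjusted p = 0.048) and with only the groups compared (0.044), 1 member passed at 100 mg/kg, which was Aldh1a1. With 1 rat left out, the count ran from 0 to 1 at 100 mg/kg and from 0 to 1 for the mean of the 3 doses. Aldh1a1 at 200 mg/kg kept its call in all 12 such fits, with a log2 difference of 1.31 to 1.53 and an adjusted p of 7.4e-04 to 0.031. The slope alternatives other than the rank of dose, and those of the other lists, were added after seeing the data. Over all probe sets the count at 200 mg/kg was 57, against 18 with the floor, 3 without the variance trend, 95 with array weights, 26 with only the groups compared and 1 in the adjusted t-test, so the count depends on the variance model and on the floor, which changed empty and dim values together. Of the other lists' genes named as called at 200 mg/kg, all but Akr7a3 and Ephx1 lost the call with the floor, and all lost it without the variance trend and in the adjusted t-test. With only the groups compared, Cyp1a2, Nqo1, Me1, Abcb1a and Oat (0.16) lost it. Deviations of rats with the same number correlated between -0.0743 and 0.0763 over 18 pairs. Of the 12 rats, 5 correlated best, on average, with their own number. No pairing by number was detected, and these values cannot show that none exists. With the number as a replicate block, the mean of the 3 doses lost its call (0 members, adjusted p = 0.07), the count over all probe sets at 200 mg/kg went to 48, and no other member's call changed, while Oat (0.083) and Ugt2b1 (0.063) lost theirs.

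No other member passed under any alternative (lowest adjusted p 0.37, Aldh6a1 at 200 mg/kg). Of their log2 differences, those near 0 turned. Aldh7a1 at 30 mg/kg was 0.005 after quantile normalization and 0.002 after scaling to the 75th percentile. Aldh6a1 at 100 mg/kg was 0.03 after quantile normalization, 0.0042 with array weights and 0.0074 as the mean of both probe sets. Aldh3a1 at 200 mg/kg was 0.014 with the floor. With 1 rat left out, the differences at 30 mg/kg ran from -0.035 to 0.017 for Aldh7a1, from -0.29 to 0.14 for Aldh1b1, from -0.092 to 0.12 for Aldh2, from -0.49 to 0.25 for Aldh3a1, from -0.036 to 0.13 for Aldh9a1 and from -0.35 to 0.0095 for Aldh4a1. At 100 mg/kg they ran from -0.037 to 0.035 for Aldh6a1 and from -0.0025 to 0.057 for Aldh7a1, and at 200 mg/kg from -0.13 to 0.033 for Aldh4a1 and from -1.12 to 0.27 for Aldh3a1. The cause of these changes was not tested. Aldh3a1 and Aldh1b1, the dimmest members, had the widest intervals at each dose.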
